A study of Homo sapiens with 4 samples.

Results

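The let-7 passenger strands are the 3p arms of the precursors of let-7 and of its close relative miR-98. They were taken by name from the deposited count table, in which 9 of 2656 mature miRNAs belong to the group: hsa-let-7a-3p, hsa-let-7b-3p, hsa-let-7d-3p, hsa-let-7e-3p, hsa-let-7f-1-3p, hsa-let-7f-2-3p, hsa-let-7g-3p, hsa-let-7i-3p and hsa-miR-98-3p. The species prefix hsa is left out from here on. The 3p arms of the let-7a-2 and let-7c precursors, let-7a-2-3p and let-7c-3p, were not among the 9 and are given for comparison. Small RNA-seq libraries came from cultures of cortical interneurons, which are inhibitory nerve cells. The cells were differentiated from H1, a single established human embryonic stem cell line, and the labels call them neural cells. The paper describes such cultures as mostly these interneurons, with few glial cells. Of 4 cultures, 2 were exposed for 7 days to ethanol at around 50 to 100 mM in the medium used for neuronal maturation, and 2 were kept for 7 days without ethanol. Per the methods, exposed cells were given a further period without ethanol before collection. The methods say that the treatment was done in duplicate but not whether the duplicates were separate differentiations, so P values measure the spread between these libraries, which may be technical.

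A miRNA precursor is a hairpin whose arms are cut out as a short duplex. An Argonaute protein usually keeps the same arm, the guide strand, which finds target mRNAs mainly through its seed, bases 2 to 8, while the other arm, the passenger strand, is mostly discarded. In let-7 the guide is the 5p arm. let-7 guides accumulate as cells leave pluripotency and differentiate, neural cells among them, and in pluripotent cells the RNA-binding protein LIN28 holds back their maturation. Both arms come from the same hairpin, so reads of either arm trace back to the same precursor. The libraries were made from total RNA, not from RNA held by Argonaute, so the balance of reads measures only indirectly what was kept.

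Mature sequences were found in RefSeq (GRCh38.p14) for 8 of the 9 passenger strands, and they are shown because their seeds split the family into groups that the guides do not have. Capitals mark the seed, and sequences run 5′ to 3′.
let-7a-3p: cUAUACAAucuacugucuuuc
let-7b-3p: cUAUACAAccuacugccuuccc
let-7f-1-3p: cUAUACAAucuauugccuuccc
miR-98-3p: cUAUACAAcuuacuacuuuccc
let-7d-3p: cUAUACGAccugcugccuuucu
let-7e-3p: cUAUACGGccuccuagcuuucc
let-7g-3p: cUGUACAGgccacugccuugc
let-7i-3p: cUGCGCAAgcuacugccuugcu
let-7a-5p: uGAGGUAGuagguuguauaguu
let-7d-5p: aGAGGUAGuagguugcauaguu
The 5p arms of let-7a and let-7d stand for the 8 guides, which all carry the same seed, GAGGUAG. The 8 passenger strands carry 5 seeds. UAUACAA is shared by let-7a-3p, let-7b-3p, let-7f-1-3p and miR-98-3p, and UGUACAG of let-7g-3p also occurs in let-7a-2-3p. The other 3 seeds each had 1 strand, and no further human miRNA with a single sequence in the RefSeq table had any of the 5. All 8 passenger strands begin with C, as did 32.5% of the less abundant arms of the tested pairs and 15.5% of the more abundant arms. Of the 8 guides, 7 begin with U and let-7d-5p begins with A.

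Some of the passenger strands differ at few bases. Over the 28 pairs among the 8 sequences, between 2 and 11 bases differed when the strands were laid side by side from the first base, with a median of 6. let-7b-3p and let-7f-1-3p differed at 2 of 22 bases, and let-7e-3p differed at 2 from let-7a-2-3p. The sources used here do not describe how reads that match several miRNAs were assigned in these cells, so counts of such neighbours may share reads. let-7a-3p has the same sequence in the precursors let-7a-1 and let-7a-3, and its count joins both.

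The precursors lie in several places of the genome (RefSeq positions on GRCh38.p14, host genes from GENCODE 29, matched by name since the counts carry no coordinates). MIRLET7A1 (94175957 to 94176036), MIRLET7F1 (94176347 to 94176433) and MIRLET7D (94178834 to 94178920) follow each other within 2964 bases of chromosome 9, inside an intron of AL158152.2, which makes a long noncoding RNA. MIRLET7A3 (46112749 to 46112822) and MIRLET7B (46113686 to 46113768) lie within 1020 bases of chromosome 22 and overlap exons of their noncoding host gene MIRLET7BHG. On the minus strand of chromosome X, MIR98 (53556223 to 53556341) and MIRLET7F2 (53557192 to 53557274) share an intron of HUWE1, the gene of a ubiquitin ligase, within 1052 bases. MIRLET7G lies on chromosome 3 (52268278 to 52268361) in an intron of WDR82, and MIRLET7E on chromosome 19 (51692786 to 51692864) in an intron of SPACA6, opposite an exon of SPACA6P-AS. MIRLET7I lies on chromosome 12 (62603686 to 62603769) inside an intron of the noncoding AC048341.1, opposite an exon of LINC01465.

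The deposited values are raw read counts per mature miRNA. They summed to 22223060 and 24858230 in the exposed libraries and to 13941795 and 12100425 in the unexposed libraries, so depth and exposure cannot be told apart in this design. Levels are given in CPM, a count divided by its library's total and put on a common scale, after TMM scaling, which corrects for differences in library composition. Before TMM scaling, 3 counts, the limit taken for a count of 0, came to between 0.121 and 0.248 CPM. Of the neuronal marker miRNAs fixed for this check, 5 of 6 were found in the table by name, and together they held between 214696 and 244991 CPM in the exposed and between 209853 and 287353 CPM in the unexposed libraries. The 7 pluripotency markers summed to between 2.42 and 2.92 CPM in the exposed and between 3.48 and 3.89 CPM in the unexposed libraries, with miR-367-3p and miR-373-3p at 0 counts in each. The 4 blood markers were under 0.699 CPM together, with miR-142-3p and miR-223-3p at 0, whereas miR-126-3p, known from endothelial cells, was at 801 to 1012 CPM. The remaining lists summed to between 75.7 and 116 CPM for the oligodendrocyte lineage, between 56.9 and 88.8 CPM for mesenchymal cells, between 178 and 404 CPM for muscle and between 16.5 and 44.2 CPM for the liver miRNA miR-122-5p. miR-9-5p, at between 157352 and 254022 CPM, held most of the neuronal sum. Most of the oligodendrocyte, mesenchymal and muscle sums came from miR-219a-2-3p, miR-143-3p and miR-1-3p, so each of these sums mainly reflects a single miRNA. These markers do not separate interneurons from other neurons.

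A read spans a whole mature strand of 21 or 22 bases, so levels were not divided by length. let-7d-3p was the highest of the 9. Its level was 515 and 533 CPM in exposed replicates 1 and 2, and 290 and 509 CPM in unexposed replicates 1 and 2. It took between 63.8% and 79.2% of all reads of the 9 strands, and its mean of 462 CPM placed it 95th among the 2656 miRNAs of the table. let-7a-3p came next, 6.02 times lower on average, with 71.4 and 83.9 CPM with ethanol and 93.6 and 57.7 CPM without. Its highest and its lowest value were both found in unexposed cells.

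let-7b-3p stood at 51.5 and 38.9 CPM with ethanol and 28.7 and 38.4 CPM without. let-7e-3p stood at 24.8 and 20.9 CPM against 23.5 and 17.4 CPM. let-7f-1-3p stood at 13.2 and 10.5 CPM against 9.41 and 10.6 CPM. In each of the 4 libraries the order ran from let-7d-3p through let-7a-3p, let-7b-3p, let-7e-3p and let-7f-1-3p to miR-98-3p when these 6 are compared, and the ranges of neighbours in that order did not overlap.

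miR-98-3p, let-7f-2-3p and let-7i-3p formed a lower group, in which the ranges of neighbours overlapped. The levels of miR-98-3p were 5.08 and 3.94 CPM with ethanol and 2.80 and 2.64 CPM without. Those of let-7f-2-3p, from the same intron, were 3.53 and 3.70 CPM against 4.83 and 2.10 CPM. let-7i-3p was at 2.38 and 1.73 CPM against 1.61 and 4.66 CPM, the widest relative spread among the 8 strands found in every library, and its lowest and highest values were both from unexposed cultures. let-7g-3p was close to absent, at 10 and 4 counts with ethanol and 4 and 0 counts without. The count of 0 in unexposed replicate 2 allows a level of up to 0.248 CPM before TMM scaling. let-7g-3p failed the low-count filter and was not tested, whereas the other 8 strands had at least 19 counts in every library.

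**Figure D1:**
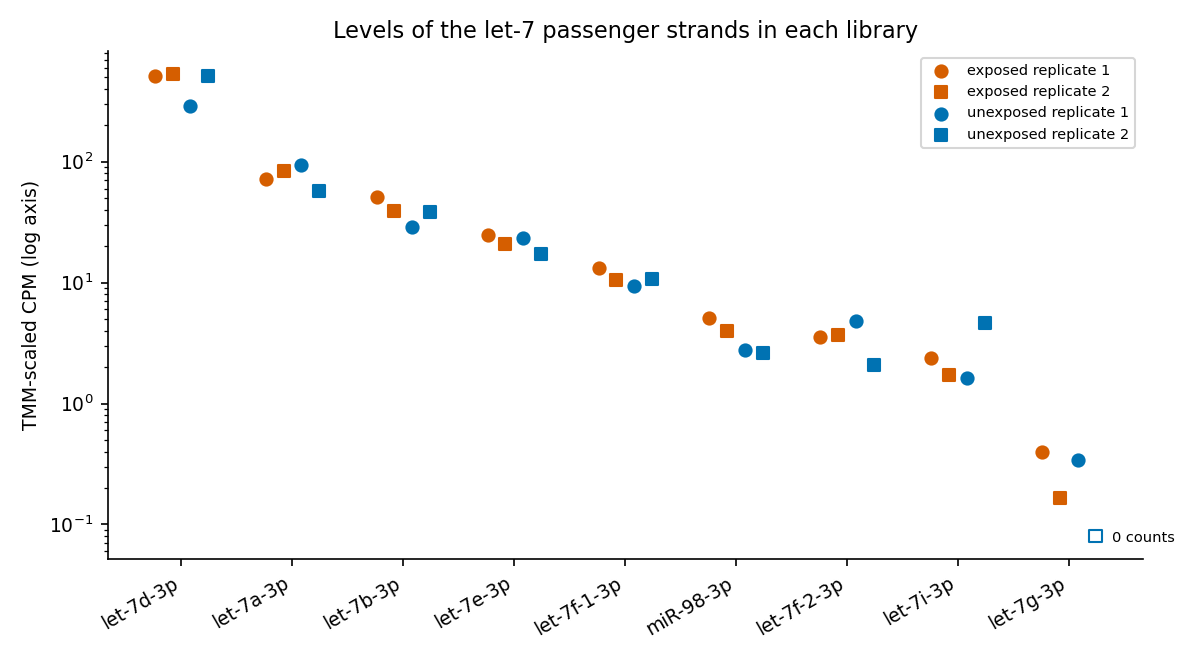
TMM-scaled CPM (log axis) of the 9 let-7 passenger strands, ordered by their mean, with 1 point per library, orange for ethanol-exposed and blue for unexposed cultures, circles for replicate 1 and squares for replicate 2; the open square marks the library with 0 counts of let-7g-3p and has no height on the axis. let-7d-3p lies above the rest in each library, from 290 to 533 CPM, and the spread between the 2 unexposed libraries is wide for let-7d-3p, let-7f-2-3p and let-7i-3p.

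The balance of the arms set let-7d apart from its relatives. For each arm pair, the passenger share is the share of passenger reads among passenger and guide reads, with exact Clopper-Pearson 95% intervals. Without molecular identifiers these cover no more than counting error. In let-7d the passenger share was 25.4% (25.0 to 25.7) and 25.4% (25.0 to 25.8) in the exposed libraries, and 15.6% (15.1 to 16.1) and 28.4% (27.8 to 28.9) in the unexposed libraries. There were thus 3.10 guide reads for each passenger read over the 4 libraries. The exposed cultures differed by less than counting error, while the unexposed cultures lay on either side of them.

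In the other pairs the guide prevailed far more. The let-7b passenger share was 1.57% (1.48 to 1.65) and 1.09% (1.02 to 1.16) in exposed against 0.729% (0.654 to 0.811) and 1.31% (1.19 to 1.42) in unexposed cells. let-7e had between 0.294% and 0.394% and let-7a between 0.235% and 0.282%. The let-7a-5p reads in the let-7a share can also come from the let-7a-2 precursor, whose 3p arm is let-7a-2-3p. In miR-98 the passenger share was 0.475% (0.396 to 0.564) and 0.257% (0.208 to 0.314) in exposed, and 0.159% (0.109 to 0.223) and 0.230% (0.159 to 0.321) in unexposed cells. For let-7f-5p, which both let-7f precursors yield, let-7f-1-3p made up between 0.0154% and 0.0391% and let-7f-2-3p between 0.00494% and 0.0104% of the reads when each was paired with it. let-7i had between 0.00499% and 0.0216%. let-7g was at the far end, at 0.00128% in exposed replicate 1 and 0 of 496172 reads in unexposed replicate 2, which with the same limit of 3 counts, in place of an interval, allows a share of up to 0.000605%. let-7c, for comparison, had between 0.436% and 0.799%.

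Over the 223 arm pairs of the table in which both arms passed the filter, the less abundant arm held a median of 7.83% of the reads, with quartiles at 1.31% and 24.1%. The mean share of let-7d, 23.7%, was above that of 73.1% of these pairs. The mean shares of the other 8 let-7 pairs were each below the median. They ran from let-7b, above 23.8% of the pairs, to let-7g, below all 223 tested pairs and itself not one of them. The filter leaves out pairs with a nearly absent arm, so the low place of let-7g was largely set in advance. The median, quartiles and ranks describe the pairs that passed, 223 of 912 matched by name. All guides together had 174 and 242 reads for each passenger read with ethanol and 451 and 215 without.

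**Figure D2:**
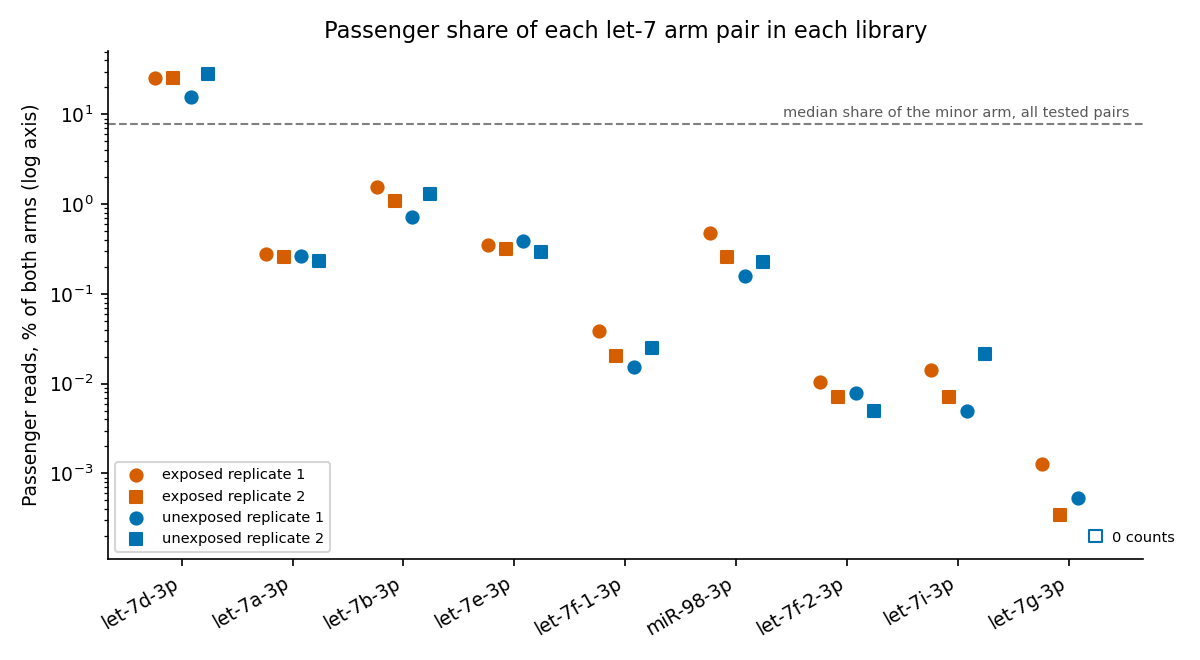
Passenger reads as a percentage of passenger and guide reads (log axis) for the 9 let-7 arm pairs in the order of the passenger levels, with 1 point per library, coloured and shaped by group and replicate; the dashed line is the median share of the less abundant arm over 223 pairs (7.83%), and the open square marks the library with 0 counts of let-7g-3p. let-7d is the pair above the line, between 15.6% and 28.4%. In miR-98 both exposed libraries lie above both unexposed libraries, with exposed replicate 2 close to unexposed replicate 2.

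Whether ethanol exposure changed the level of the passenger strands was tested with edgeR's quasi-likelihood test over all 863 miRNAs that passed the low-count filter. Of the 8 passenger strands tested, 7 had a positive and 1 a negative log2 fold change, and the median was 0.20, against -0.010 over all tested miRNAs, of which 48.8% were positive. With upper quartile scaling 5 of the 8 were positive. Relative to the median of all miRNAs, 7 of the 8 were above it under each of the 4 scalings. A scaling moves all log2 fold changes by nearly the same amount, so this agreement was built in and is no check of the direction. No passenger strand had an unadjusted P under 0.05 (0 of 8 in edgeR, limma-voom and DESeq2), where 4.52% of all tested miRNAs had, 2.55% with a higher and 1.97% with a lower level in exposed cells. After Benjamini-Hochberg adjustment 0 of the 863 passed 0.05 in edgeR, with 39 under 0.05 before adjustment. With at least 1 count in any library 6 miRNAs passed, and with a library left out between 1 and 18, of which 0 were passenger strands in each of these fits. In bulk RNA, fewer cells of a type and less RNA per cell cannot be told apart. In 3 of the 8 strands, miR-98-3p, let-7b-3p and let-7d-3p, both exposed libraries were above both unexposed libraries, and in the other 5 the groups overlapped. Over all tested miRNAs the groups were apart in this direction for 18.8%, in the other for 14.6% and in either for 33.4%. Of the 5 neuronal markers tested, 3 had a positive and 2 a negative log2 fold change. miR-124-3p was at 5406 and 3362 CPM with ethanol and 2948 and 2190 CPM without (log2 fold change 0.77, unadjusted P of 0.0316 and adjusted p of 0.922 in edgeR). miR-128-3p and miR-138-5p had log2 fold changes of 0.31 and 0.26, and miR-9-5p and miR-218-5p of -0.23 and -0.26. The part of neuronal content in the let-7 values was not tested.

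miR-98-3p differed most between the groups. Its mean was 4.51 ± 0.800 CPM (SD, n = 2) with ethanol and 2.72 ± 0.110 CPM (SD, n = 2) without, on 33 to 128 counts per library. The log2 fold change was 0.73 (standard error 0.32, 95% interval -0.0017 to 1.46), with an unadjusted P of 0.0504 and an adjusted p of 0.922 in edgeR. A two-sided exact permutation test gave 0.333, the smallest p that 2 libraries against 2 allow. The fold change stayed between 0.53 and 0.91 over the 13 alternative fits, and the unadjusted P between 0.0399 and 0.292. It was under 0.05 in edgeR with the filters of at least 1 count in any library (0.0399) and of 10 counts in every library (0.0432), and over 0.05 in the other 11 fits, among them the replicate block (0.108) and DESeq2 (0.116). Its guide strand, miR-98-5p, pointed the other way, with a log2 difference of -0.16 (standard error 0.29), and its groups overlapped.

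let-7b-3p averaged 45.2 ± 8.89 CPM (SD, n = 2) with ethanol and 33.5 ± 6.89 CPM (SD, n = 2) without, giving a log2 fold change of 0.43 (standard error 0.28, 95% interval -0.22 to 1.08). let-7d-3p averaged 524 ± 12.7 CPM (SD, n = 2) with ethanol and 400 ± 154 CPM (SD, n = 2) without, giving a log2 fold change of 0.39 (standard error 0.29, 95% interval -0.27 to 1.06). Both missed the threshold, with unadjusted P values of 0.163 and 0.212 in edgeR and an exact permutation p of 0.333. The gap behind the separation of let-7d-3p was narrow, since unexposed replicate 2 (509 CPM) came close to exposed replicate 1 (515 CPM). let-7i-3p, at 2.05 ± 0.462 CPM (SD, n = 2) against 3.14 ± 2.16 CPM (SD, n = 2), was the strand with a negative log2 fold change, -0.62 (standard error 0.48, 95% interval -1.74 to 0.50). let-7f-1-3p, let-7e-3p, let-7f-2-3p and let-7a-3p had log2 fold changes of 0.24, 0.16, 0.067 and 0.038, with standard errors of 0.29, 0.28, 0.41 and 0.29. For these 4 the 95% intervals reached from at most -0.42 to at least 0.71, so differences in either direction remained possible.

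The guide strands showed a different balance of signs. Of the 8 guides, 2 had a positive and 6 a negative log2 fold change, with a median of -0.10 and 0 with an unadjusted P under 0.05 in edgeR, while let-7a-5p and let-7b-5p were positive when scaled by library size only. Relative to the median of all miRNAs, 3 of the 8 guides were above it under each of the 4 scalings, an agreement that is again built in. They ranged from -0.40 (standard error 0.31) for let-7i-5p and -0.38 (standard error 0.35) for let-7g-5p to 0.20 (standard error 0.22) for let-7e-5p, the guide whose groups did not overlap. The most abundant guides were let-7f-5p, between 33887 and 60904 CPM, and let-7g-5p, between 30885 and 63494 CPM. For let-7f-5p the log2 fold change was -0.28 (standard error 0.32).

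**Figure D3:**
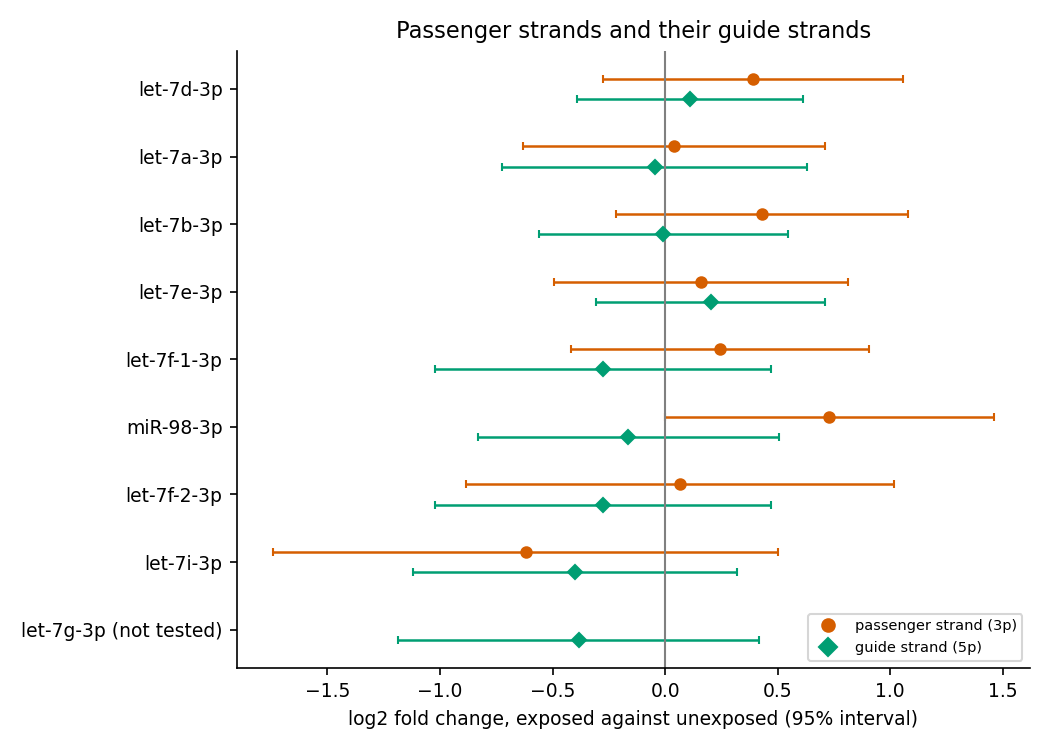
Log2 fold changes in ethanol-exposed against unexposed cells from edgeR, with 95% intervals as bars, for the let-7 passenger strands (orange circles) and the guide strand of the same precursor (green diamonds, with let-7f-5p drawn for both let-7f precursors); let-7g-3p was not tested. The interval of miR-98-3p, -0.0017 to 1.46, ends nearest to excluding 0, and the remaining intervals include 0 with more room.

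A shift in arm balance was tested in a separate edgeR fit on the 223 arm pairs, in which the library was a block and the arm could respond differently to exposure. The shift toward the passenger strand in exposed cells was positive in 6 of the 8 let-7 pairs tested, with let-7f-5p in both let-7f pairs. A shift toward the 3p arm was positive in 56.5% of all pairs. Over the 223 pairs the 3p arm was the less abundant in 122 and the 5p arm in 101. The values for all pairs thus describe the 3p arm, not the passenger strand. The median shift of the 8 was 0.38 on the log2 scale and that of all 223 pairs 0.073. Among the 8, miR-98 had an unadjusted P under 0.05, where 2.24% of all pairs had. Its log2 shift was 0.88 (standard error 0.40, 95% interval 0.023 to 1.74), with an unadjusted P of 0.0450 and an adjusted p of 0.980 in edgeR and an exact permutation p of 0.333. Both exposed libraries had a higher miR-98 passenger share than both unexposed libraries, which held in the 3p direction for 17% of all pairs and in the 5p direction for 12.6%. The gap was narrow: exposed replicate 2 was at 0.257% (0.208 to 0.314) and unexposed replicate 2 at 0.230% (0.159 to 0.321), with overlapping counting intervals. With limma-voom the shift was 0.86 with an unadjusted P of 0.0737. It was 0.43 without exposed replicate 1, the library with the highest share (unadjusted P of 0.420 in edgeR), 0.61 without unexposed replicate 1 (0.299) and 1.15 without unexposed replicate 2 (0.0558). Without exposed replicate 2 it was 1.32 (unadjusted P of 0.0353 in edgeR).

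The shifts of let-7f-1, let-7f-2 and let-7b were 0.52, 0.43 and 0.42, with standard errors of 0.48, 0.48 and 0.37. Those of let-7d and let-7a were 0.33 and 0.11, with standard errors of 0.37 and 0.38. let-7e and let-7i had shifts of -0.033 and -0.16, with standard errors of 0.34 and 0.63. For each of these 7 pairs the groups overlapped and the unadjusted P was at least 0.269 in edgeR. Without unexposed replicate 2, however, the shifts of let-7d and let-7b were 0.88 and 0.85, with unadjusted P values of 0.00889 and 0.0358 in edgeR and adjusted p values of 0.657 and 0.665. Without unexposed replicate 1 they were -0.22 and 0.0040. After adjustment 0 of the 223 pairs passed 0.05 in edgeR, with 5 under 0.05 before adjustment.

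The unexposed cultures differed from each other more than the groups did for several strands. From unexposed replicate 1 to unexposed replicate 2, let-7i-3p differed by 1.51, let-7d-3p by 0.81 and let-7b-3p by 0.42 on the log2 scale, each higher in replicate 2. let-7f-2-3p, let-7a-3p and let-7e-3p were lower there, by -1.19, -0.70 and -0.43. For 5 of the 8 tested strands (let-7a-3p, let-7d-3p, let-7e-3p, let-7f-2-3p and let-7i-3p), the difference between these replicates was larger than the log2 fold change of exposure. A difference between 2 single libraries varies more than one between means of 2 libraries, so this count can arise without an effect of exposure. The share over all tested miRNAs was not computed. The median size of the difference between replicates was 0.56 for the passenger strands in unexposed and 0.29 in exposed cells, against 0.41 and 0.28 over all tested miRNAs.

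Between replicates the guides mostly differed in the same direction, and the passenger strands did not. All 8 guides were lower in unexposed replicate 2 than in replicate 1, by between -0.72 for let-7g-5p and -0.0097 for let-7e-5p. In the exposed cells 7 of the 8 were higher in replicate 2, by between 0.047 for let-7d-5p and 0.62 for let-7g-5p, and let-7e-5p differed by -0.080. Among the passenger strands, let-7a-3p and let-7f-2-3p had the signs of these 7 guides, with 0.23 and 0.067 in the exposed cells. let-7b-3p, let-7f-1-3p and let-7i-3p had the opposite signs in both groups, with -0.40, -0.33 and -0.46 in the exposed cells. How many of all tested miRNAs had the signs of the guides was not computed. Some guides differ from each other at few bases, so their counts may also share reads, which was not tested. The base composition of the strands is given beside these differences. The GC content was 33.3% in let-7a-3p, 36.4% in miR-98-3p, 40.9% in let-7f-1-3p, 50.0% in let-7b-3p and let-7d-3p, 54.5% in let-7e-3p and 59.1% in let-7i-3p, and between 31.8% and 45.5% in the guides. Across 771 tested miRNAs with a sequence, which share the 4 libraries and are not independent, GC content had a Pearson correlation of 0.15 with the difference between the unexposed replicates, -0.33 with that between the exposed replicates and 0.30 with the log2 fold change of exposure. The part of base composition in the let-7 values was not tested.

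**Figure D4:**
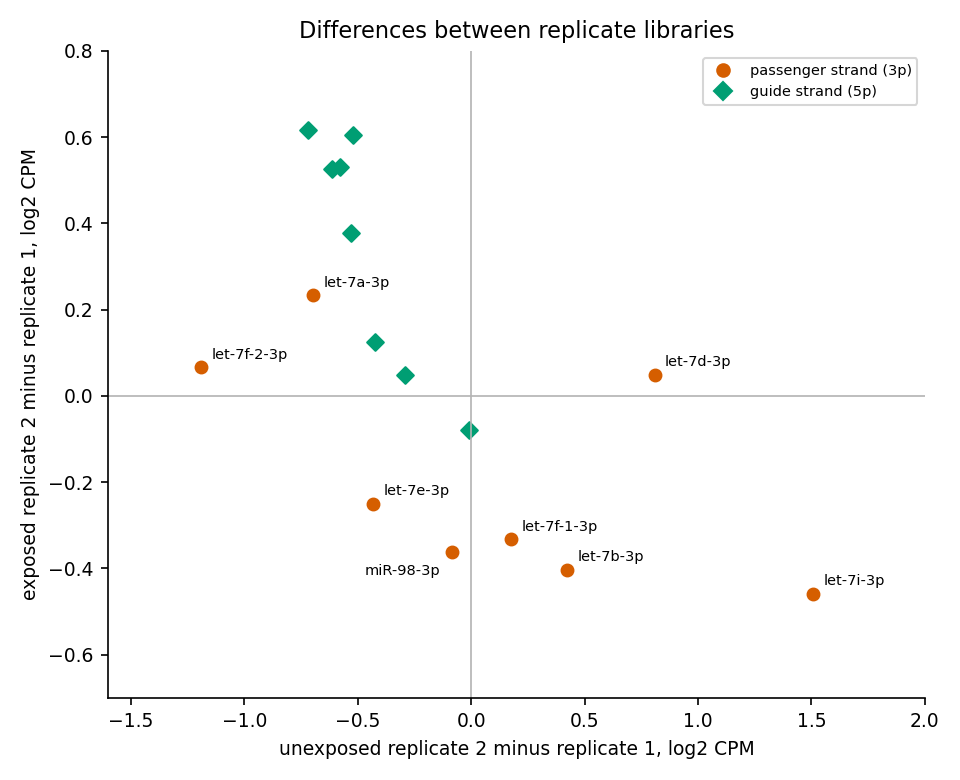
Difference between replicate 2 and replicate 1 in log2 CPM within the unexposed cells (horizontal) and within the exposed cells (vertical), for 8 passenger strands (orange circles, named) and 8 guide strands (green diamonds); let-7g-3p was left out for its low counts. The guides lie at the upper left and near 0, while the passenger strands spread from -1.19 for let-7f-2-3p to 1.51 for let-7i-3p along the horizontal axis.

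The choice of unexposed library therefore decided several fold changes. Without unexposed replicate 2 the log2 fold change of let-7d-3p reached 0.82 (unadjusted P of 0.00562 in edgeR), and without unexposed replicate 1 it was 0.037. Its adjusted p ranged from 0.147 to 1.00 over the 13 alternative fits. let-7b-3p was at 0.62 without unexposed replicate 2, with an unadjusted P of 0.0496 and an adjusted p of 0.434 in edgeR, and at 0.23 without unexposed replicate 1. let-7i-3p turned from -1.19 without unexposed replicate 1 (unadjusted P of 0.00265 in edgeR, adjusted p between 0.108 and 1.00 over the 13 alternative fits) to 0.31 without unexposed replicate 2. let-7f-2-3p moved from 0.78 to -0.45, let-7a-3p from 0.42 to -0.30 and let-7e-3p from 0.39 to -0.077 in the same comparison, without an unadjusted P under 0.05. Of the guides, let-7g-5p and let-7i-5p were at -0.73 and -0.69 without unexposed replicate 2, with unadjusted P values of 0.00951 and 0.0137 and adjusted p values of 0.189 and 0.208 in edgeR, and at 0.011 and -0.088 without unexposed replicate 1. In these fits the lone unexposed library is assumed to vary like the exposed libraries. miR-98-3p had log2 fold changes of 0.77 and 0.65 without unexposed replicates 1 and 2, and let-7f-1-3p of 0.15 and 0.30.

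**Figure D5:**
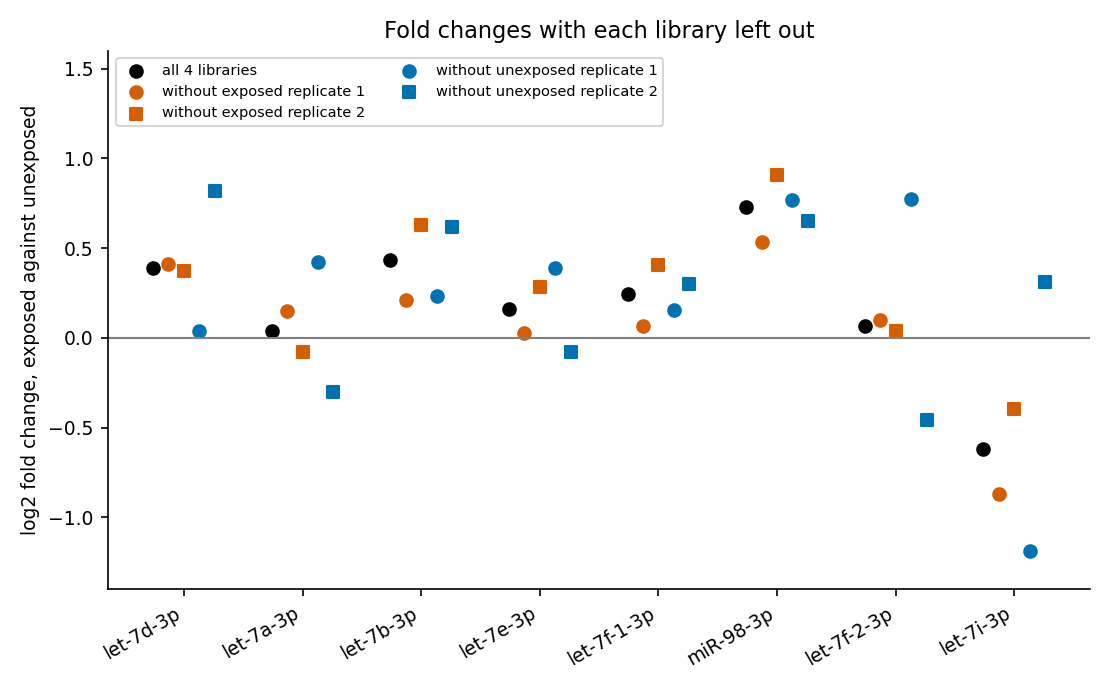
Log2 fold change in ethanol-exposed against unexposed cells for the 8 tested let-7 passenger strands with all 4 libraries (black) and with each library left out in turn (orange for an exposed and blue for an unexposed library, circles for replicate 1 and squares for replicate 2). The values of miR-98-3p, let-7b-3p, let-7d-3p and let-7f-1-3p stay above 0, and those of let-7a-3p, let-7e-3p, let-7f-2-3p and let-7i-3p lie on both sides of it.

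The read ratio of neighbours on a chromosome varied between libraries, and it was not set against counting error or the spread of other miRNAs. On chromosome 9, there were 38.9 and 50.7 reads of let-7d-3p for each read of let-7f-1-3p with ethanol and 30.9 and 47.8 without. On chromosome X, miR-98-3p had 1.44 and 1.07 reads for each read of let-7f-2-3p with ethanol and 0.579 and 1.26 without, and the groups overlapped. The ratio of let-7a-3p to let-7b-3p, whose precursors share a host gene on chromosome 22, was 1.39 and 2.16 against 3.27 and 1.50, with let-7a-3p reads from chromosome 9 included. The miRNAs that are transcribed with other let-7 precursors, miR-99a, miR-99b, miR-100, miR-125a and miR-125b, were read as a list of 11 arms. Of the 10 that were tested, 4 had a positive and 6 a negative log2 fold change, with a median of -0.032 and 0 with an unadjusted P under 0.05 in edgeR. In this list miR-125b-1-3p, a passenger strand from the let-7a-2 cluster, was at 2237 and 1802 CPM with ethanol and 1116 and 1632 CPM without, and differed by 0.56 on the log2 scale (standard error 0.26).

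The let-7 3p arms outside the group were tested in the same fit. let-7c-3p was at 91.7 and 96.0 CPM with ethanol and 82.9 and 106 CPM without, with a log2 fold change of -0.0098 (standard error 0.24, 95% interval -0.56 to 0.54), and its groups overlapped. It was thus more abundant than each of the 9 strands but let-7d-3p by its mean. let-7a-2-3p, with 8 to 20 counts per library, differed by 0.28 on the log2 scale (standard error 0.40).

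Summed by seed, the 4 strands with UAUACAA held 141 and 137 CPM with ethanol and 134 and 109 CPM without. The 9 strands together held 688 and 697 CPM against 455 and 643 CPM. Without let-7d-3p, the sum of the other 8 was 172 and 164 CPM against 165 and 134 CPM, so the groups overlapped.

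Among the 371 miRNAs outside the group with a mean of at least 10 CPM, the profile of let-7d-3p over the 4 libraries was nearest to that of miR-128-3p, an miRNA abundant in neurons, with a root mean square difference of 0.058 in centred log2 CPM. miR-128-3p was at 48736 and 48142 CPM with ethanol and 29351 and 48812 CPM without, with the same low value in unexposed replicate 1. miR-92b-3p and miR-184 followed at 0.11 and 0.12. let-7a-3p lay nearest to miR-340-5p, miR-3613-5p and miR-708-5p, at 0.026, 0.029 and 0.056. With 4 libraries such likeness is a description, and the spread of these differences over the 371 miRNAs was not examined.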

How the data were processed

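Small RNA-seq was done on 2 ethanol-exposed and 2 unexposed cultures. From NEBNext libraries, the authors obtained read counts with CAP-miRseq, and these raw counts for each mature miRNA were deposited unscaled. The submitters' processing notes name the build hg19, and the annotation release is not given in the sources used here. Columns were assigned to samples by the labels.

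The counts were filtered with filterByExpr of edgeR 4.0.16 in R 4.3.3 (minimum count 10, minimum total 15) and scaled by TMM. Exposed and unexposed cells were compared with the quasi-likelihood test and Benjamini-Hochberg adjustment over 863 miRNAs. Log2 CPM used a prior count of 0.5. For arm balance, the 3p and 5p arms of the same name (a copy number dropped where the other arm has none) were fitted with library as block. limma 3.58.1 and DESeq2 1.42.0, other scalings and filters, a replicate block and leaving out each library served as alternatives. Both fits were tested on simulated data. Named miRNAs were the 9 passenger strands, their guides, other let-7 arms, let-7 cluster miRNAs, marker miRNAs and, for the 2 most abundant passenger strands, the 3 nearest profiles. Members and lists were chosen with earlier results of these data known. Replicate libraries were not the same library counted again: a chi-square statistic was 795 and 712 per degree of freedom. It cannot tell separate cultures from separate library preparations of the same culture.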

Additional observations from a re-analysis of the deposited data

How the results depend on the processing

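With 2 libraries a group, each library weighs heavily, and the 3 rarest tested strands rest on 19 to 128 counts a library. Of the log2 fold changes of the passenger and guide strands recomputed under alternatives, 180 kept their direction and side of an unadjusted P of 0.05, 21 changed sign and 7 passed the threshold; the causes were not tested beyond the libraries named. Scaling by library size alone moved the median log2 fold change of all miRNAs to 0.14 and upper quartile scaling to -0.12. Before these medians are taken off, let-7a-5p was 0.12 and let-7b-5p 0.16 with library size only, and let-7a-3p was -0.062 and let-7f-2-3p -0.035 with upper quartile scaling. Relative to them, let-7a-5p (-0.029), let-7a-3p (0.057) and let-7f-2-3p (0.084) had the signs of the main fit, which taking off the median nearly fixes in advance. let-7b-5p, near 0, was also positive with at least 1 count in any library (0.010), at least 10 counts in every library (0.018), limma-voom (0.0057) and the replicate block (0.0063).

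In edgeR, 39 miRNAs had an unadjusted P under 0.05, and 94 had with at least 1 count in any library. Among the passenger strands 1, miR-98-3p, was under 0.05 with this filter or with 10 counts required in every library, against 0. The number of arm pairs, 5, was 10 with at least 1 count in any library and 3 with CPM above 1 in at least 2 libraries. The let-7 pair under 0.05, miR-98, was not under 0.05 (0 pairs) with that CPM filter (shift 0.88, P 0.0577), with 10 counts required in every library (0.88, P 0.0579) and with limma-voom (0.86, P 0.0737). Same-numbered replicates were not paired by the labels, and their differences had a correlation of -0.19 over miRNAs. With the replicate block 25 miRNAs had an unadjusted P under 0.05, 0 of them passenger strands, and 4 arm pairs, 1 of them let-7 (miR-98, shift 0.88, P 0.0240). With the crossed replicate block, chosen after seeing the data, the numbers were 59, 1, 10 and 1.

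With each library left out in turn, between 12 and 109 miRNAs, 0 and 2 passenger strands, 0 and 14 arm pairs and 0 and 2 let-7 arm pairs had an unadjusted P under 0.05. Adjusted p values under 0.05, 0 with all libraries, numbered 1 and 5 without exposed replicates 1 and 2, and 18 and 15 without unexposed replicates 1 and 2, none a passenger strand. The log2 fold changes ranged from -0.30 to 0.42 for let-7a-3p, -0.077 to 0.39 for let-7e-3p, -0.45 to 0.78 for let-7f-2-3p and -1.19 to 0.31 for let-7i-3p. Those of the guides ranged from -0.32 to 0.23 for let-7a-5p, -0.24 to 0.21 for let-7b-5p, -0.065 to 0.26 for let-7d-5p, -0.73 to 0.011 for let-7g-5p and -0.47 to 0.17 for miR-98-5p. The arm shifts ranged from -0.22 to 0.88 for let-7d, -0.24 to 0.18 for let-7e and -1.08 to 1.04 for let-7i.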
